A study of Mus musculus with 18 samples.

Results

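In N2A cells, *Id3* was at 2.63 to 5.90 CPM (read counts scaled to a common library size) across 6 Scramble KD libraries. The 6 libraries of *Fmr1* KD stood at 12.4 to 15.9 CPM and those of *Zfp598* KD at 6.39 to 14.2 CPM, so that every KD library lay above every Scramble KD library. *Id4*, of the same gene family, was lower on average in both KDs, but its level in all KD libraries except 1 lay between those of the control siRNAs, which differed from each other by 2.33 ± 0.21 on the log2 scale (standard error, SE). *Id1* passed no test in 12 comparisons with all libraries and the filter on low counts, and *Id2* was called between siRNAs but not between the pooled conditions. Of the 6 SMADs and BMP receptors described with them, *Smad1* rose in *Fmr1* KD by 0.40 ± 0.12 on the log2 scale at an adjusted p of 0.0497, and none of these 6 passed the test in *Zfp598* KD over its pooled siRNAs. The *Smad1* call was lost in 12 of the 18 fits with 1 library left out (edgeR adjusted p up to 0.121). *Smad1* was not called with counts summed per siRNA either (0.999). That fit has 2 values per condition and called 0 of all genes in *Fmr1* KD.

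The genes described are 10 of the 55414 in the count table, the 4 Id genes (*Id1*, *Id2*, *Id3*, *Id4*) and 6 genes of the BMP-SMAD pathway (*Smad1*, *Smad5*, *Smad6*, *Smad7*, *Bmpr1a*, *Bmpr2*), and all 10 were among the 17901 genes with enough counts to be tested. They were listed by name after *Id3* had been seen to be higher in both KDs and *Id4* to change in opposite directions, so the values of these 2 genes in KD against Scramble KD are given as a description, with no test. In these data the opposite directions of *Id4* were those of siRNA A and siRNA B, not those of *Fmr1* KD and *Zfp598* KD. *Id3* was also among the transcripts that the study picked from these libraries. The study further reported higher *Id3* by RT-qPCR in repeated KDs and a longer half-life of its mRNA in both KDs. Those measurements were not used here.

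N2A (Neuro-2a) cells are a mouse neuroblastoma line. KD lasted 72 h and used 6 siRNAs, of which 2 were non-targeting (Scramble KD), 2 targeted *Fmr1* and 2 targeted *Zfp598*. The letters A and B distinguish both siRNAs of a condition, each siRNA had 3 replicate libraries of rRNA-depleted total RNA, and a library is named by its siRNA letter and replicate, such as A1. All groups were grown in medium with serum and received a lipid transfection reagent, and no group was left untransfected. Libraries of 1 siRNA are replicate KDs of a single line, so tests between siRNAs cannot tell the target of an siRNA from its other effects, and the letters A and B do not tie an siRNA of one condition to that of another. *Fmr1* encodes FMRP, an RNA-binding protein that represses translation, and *Zfp598* encodes a ubiquitin ligase that recognizes collided ribosomes. The study compared the KDs to find transcripts that increase when either protein is depleted.

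BMPs are secreted ligands that bring together type I receptors such as BMPR1A and type II receptors such as BMPR2, whose kinases lead to phosphorylation of SMAD1, SMAD5 and SMAD9. These join SMAD4, enter the nucleus and activate target genes, among them the Id genes and *Smad6* and *Smad7*, whose products inhibit the pathway in turn. Id proteins have a helix-loop-helix domain but no DNA-binding region, and they hold E proteins and tissue bHLH factors in complexes that cannot bind DNA. In the sympathetic lineage from which neuroblastoma arises, BMP signalling is known for inducing the transcription factors of the noradrenergic fate.

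The promoters of the Id genes were searched for motifs that SMAD and bHLH proteins are known to bind, and 3 are printed because *Id3* and *Id4* are the genes the description turns on and *Id2* differed most often between siRNAs among the other Id genes. Each is the 250 bases before the start site on the transcribed strand, from RefSeq on GRCm38.p6, 5′ to 3′. Capitals mark GGCGCC, a GC-rich motif known for SMAD1 and SMAD5, CAGAC, the core of the SMAD-binding element, and CANNTG, the E-box of bHLH proteins, searched on both strands with no overlap between motifs.
*Id2*, chr12:25096093-25096342, minus strand: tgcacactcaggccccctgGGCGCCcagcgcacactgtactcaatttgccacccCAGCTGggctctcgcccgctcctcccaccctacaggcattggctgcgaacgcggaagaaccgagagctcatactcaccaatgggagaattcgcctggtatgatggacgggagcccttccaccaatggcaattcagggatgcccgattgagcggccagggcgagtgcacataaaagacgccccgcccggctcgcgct
*Id3*, chr4:136143572-136143821, plus strand: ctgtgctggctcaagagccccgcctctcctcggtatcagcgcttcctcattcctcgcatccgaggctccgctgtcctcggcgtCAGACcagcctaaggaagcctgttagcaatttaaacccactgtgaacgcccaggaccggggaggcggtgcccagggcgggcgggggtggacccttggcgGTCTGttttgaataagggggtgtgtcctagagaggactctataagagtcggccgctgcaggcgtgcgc
*Id4*, chr13:48260866-48261115, plus strand: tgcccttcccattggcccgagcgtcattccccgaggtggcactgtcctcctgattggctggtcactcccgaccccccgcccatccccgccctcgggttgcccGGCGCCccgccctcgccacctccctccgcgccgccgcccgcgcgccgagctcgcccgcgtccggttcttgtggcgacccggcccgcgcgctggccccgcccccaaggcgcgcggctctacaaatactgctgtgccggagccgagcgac
The *Id3* window held CAGAC on both strands, 1 match on each, and neither other motif. The *Id4* window held 1 GGCGCC alone, and the *Id2* window held 1 GGCGCC and 1 CANNTG. Of 32851 windows of the same length, 9.59% held GGCGCC, 42.2% held CAGAC and 66.2% held CANNTG. Among the other members, GGCGCC was found before *Bmpr1a*, *Bmpr2* and 1 of 3 start sites of *Smad5*. CAGAC was found before another *Smad5* start site, and CANNTG before 2 of them, whose windows overlap and share the same match. The windows of *Smad1* and *Smad6* held none of the motifs. *Id1* and *Smad7* windows were not used here. A match describes the letters of the window only.

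Total counts ranged from 7674724 to 15414590 per library. *Fmr1* was at 51.1 to 68.7 CPM in Scramble KD and at 15.7 to 27.5 CPM in *Fmr1* KD, and *Zfp598* was at 103 to 128 CPM in Scramble KD and at 32.2 to 48.7 CPM in *Zfp598* KD, with no overlap for either gene. In *Zfp598* KD A3 and A2 a single feature without a GENCODE M39 entry took 25.8% and 15.2% of the counts, against 5.00% to 11.1% in the other 16 libraries. *Fmr1* KD B1 held 24.7 CPM of *Tfcp2l1*, 7.42 CPM of *Nanog*, 6.88 CPM of *Zfp42* and 2.29 CPM of *Pou5f1*, which mark pluripotent stem cells, and the 11 such markers in the table summed to 62.7 CPM in it and to 4.34 to 10.9 CPM elsewhere. Results were therefore also computed without these 3 libraries. The neuroblastoma markers *Tubb3* and *Hand2* were present in every library (302 to 543 and 166 to 473 CPM). Of 8 macrophage markers, *Adgre1*, *Itgam* and *C1qb* had 0 counts in every library, whereas *Cd68* and *Csf1r* had 2 to 24, and the list summed to 1.11 to 3.36 CPM. Of 9 fibroblast markers *Lum* had 0 counts throughout, but *Pdgfrb* and *Pdgfra* were counted in every library (8.56 to 31.2 and 5.11 to 15.3 CPM), and the list summed to 29.1 to 41.2 CPM for Scramble KD, 26.9 to 31.6 CPM after *Fmr1* knockdown and 20.3 to 39.1 CPM after *Zfp598* knockdown. *Pdgfra* rose in *Fmr1* KD by 0.96 ± 0.17 (edgeR adjusted p = 0.00217), and *Pdgfrb* fell by 0.97 there and by 0.96 in *Zfp598* KD (adjusted p = 0.00366 and 0.0149). Their part in the results was not tested.

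The receptors and *Smad5* were the most abundant members. Levels between genes were compared as reads per kilobase of exon at equal library size (RPKM), over the union of a gene's exons and all 18 libraries. *Bmpr1a* was at 28.0 ± 3.57 RPKM (SD, n = 18), *Smad5* at 20.1 ± 3.38, *Bmpr2* at 14.9 ± 3.07, *Id1* at 11.8 ± 3.09, *Smad1* at 8.51 ± 1.75, *Smad7* at 8.09 ± 1.81, *Smad6* at 7.34 ± 1.63, *Id3* at 5.38 ± 2.57, *Id4* at 2.91 ± 1.79 and *Id2* at 0.677 ± 0.314 RPKM. Neighbours in this order overlapped in their ranges over the libraries. Over the longest transcript in place of all exons, *Smad1* (19.9 RPKM) passed *Id1* (15.9 RPKM) and no other places changed. *Id1* was thus the most abundant Id gene and *Id2* the least, with only 5 to 60 counts in a library. In *Fmr1* KD over pooled siRNAs the SE of the *Id2* change was 0.32, the largest of the members but for *Id4* (0.39). In bulk RNA, fewer cells with a transcript and less of it per cell cannot be told apart.

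Ligand transcripts were scarce. Of 14 BMP ligand genes, 12 had a mean under 0.1 RPKM and 3 had 0 counts in all libraries, *Bmp4* among them. The exceptions were *Gdf7*, a ligand known from the roof plate of the spinal cord, at 2.11 ± 0.97 RPKM, and *Bmp8b* at 0.176 ± 0.065 RPKM (SD, n = 18). With the 6 libraries of both siRNAs pooled, neither was called in KD against Scramble KD by edgeR or DESeq2 or had an unadjusted p under 0.05. By siRNA, *Gdf7* was lower with *Zfp598* siRNA B than with Scramble siRNA B (-0.73 ± 0.27, adjusted p = 0.0493), where siRNA A had 0.78 ± 0.26 (adjusted p = 0.0518), and the difference between these effects was -1.52 ± 0.37 (adjusted p = 0.00588). Between siRNA B and A it differed by 1.01 ± 0.26 for *Fmr1* (adjusted p = 0.00610) and by -1.50 ± 0.27 for *Zfp598* (adjusted p = 2.85e-04).

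The first comparisons pooled both siRNAs of a condition, 6 libraries against 6, as the study did. A gene was called when edgeR's quasi-likelihood test gave a Benjamini-Hochberg adjusted p under 0.05 over all 17901 genes. Over all genes tested, 3875 had an unadjusted p under 0.05 in *Fmr1* KD, 3244 in *Zfp598* KD and 3734 between the KDs, against which the counts at that threshold below can be read. In *Fmr1* KD, 2.73% of all genes were called higher and 3.80% lower, and 1 of the 8 members tested was called, *Smad1*, higher. In *Zfp598* KD, 0.916% of all genes were called higher and 1.04% lower, and none of the 8 members was (0 of 8 also by DESeq2), although *Id2* and *Smad6* had an unadjusted p under 0.05. Between *Fmr1* KD and *Zfp598* KD, 5.39% of genes were called and 0 of the 9 members tested (1 by DESeq2, *Smad1*), *Id3* and *Smad1* having an unadjusted p under 0.05. Over the 8 members the median log2 fold change was 0.24 for *Fmr1* KD and 0.08 for *Zfp598* KD, where the medians of all genes tested were 0.00 and 0.01.

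Each KD siRNA was then set against the same-letter Scramble siRNA, with 3 libraries on each side. With siRNA A against *Fmr1*, 3 of 8 members were called (*Id2*, *Smad1* and *Smad7*, all higher) beside 23.6% of all genes, and with siRNA B, 2 of 8 (*Smad1* and *Smad6*, both higher) beside 22.7%. With siRNA A against *Zfp598*, 2 of 8 were called (*Smad5* and *Bmpr1a*, both higher) beside 11.9% of genes, and with siRNA B, 4 of 8 (*Id2* and *Smad6* higher, *Smad5* and *Bmpr1a* lower) beside 26.8%. *Smad1* in *Fmr1* KD was thus the only member called in the same direction with both siRNAs of a target, and *Smad5* and *Bmpr1a* in *Zfp598* KD were called in opposite directions. With 8 members tested, such counts do not set the members apart from the background. Both KDs were set against the same Scramble libraries, so their values are not independent of each other.

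**Figure D1:**
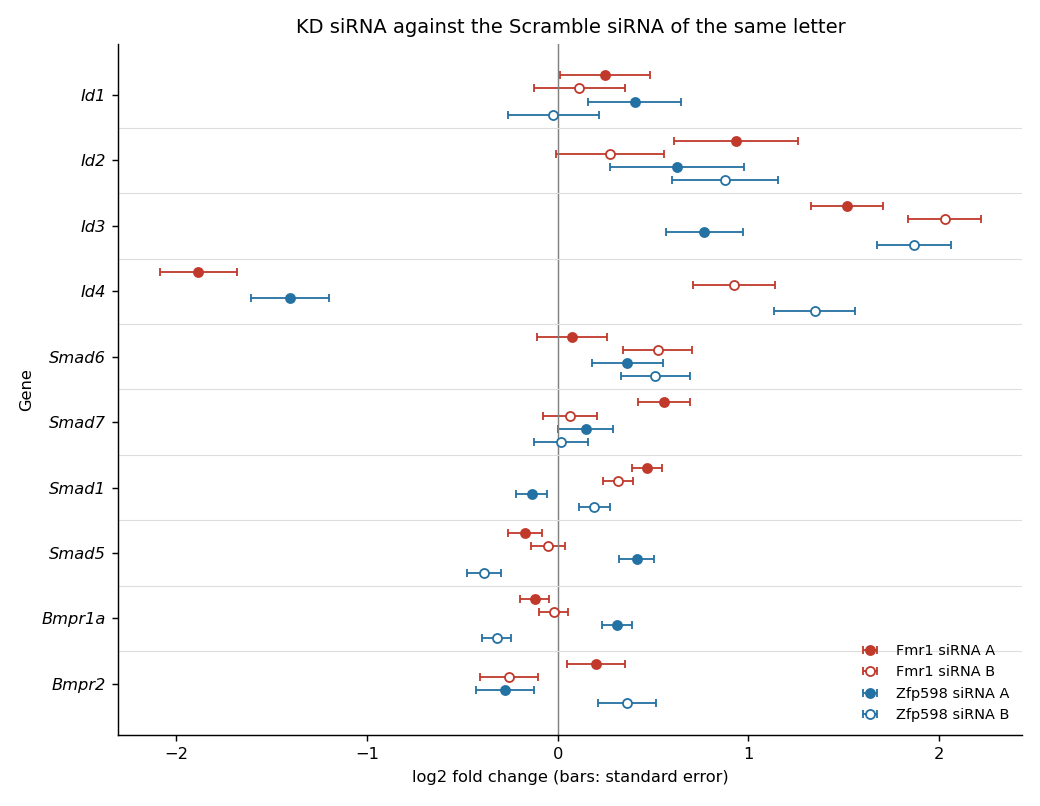
The log2 fold change (x axis, bars showing the SE) of each member (y axis) for each KD siRNA against the same-letter Scramble siRNA, 3 libraries each, with filled points for siRNA A and open points for siRNA B. *Id3* lies right of 0 for all 4 siRNAs (0.77 to 2.03), and *Id4* lies left of 0 for siRNA A (-1.89 and -1.40) and right of it for siRNA B (0.92 and 1.35).

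*Bmpr1a*, the type I receptor (chr14:34132687-34225379, minus strand, with all gene positions on GRCm39), differed between siRNAs within conditions. It was at 207, 201 and 202 CPM in Scramble KD A1 to A3 and at 258, 238 and 217 in B1 to B3, at 195, 188 and 178 in *Fmr1* KD A and 222, 246 and 235 in B, and at 266, 255 and 235 in *Zfp598* KD A and 191, 186 and 194 in B. Scramble and *Fmr1* siRNA B thus gave higher levels than siRNA A, and *Zfp598* siRNA B gave lower ones, with no overlap in any of the 3 conditions. Against the Scramble siRNA of its letter, *Zfp598* siRNA A had a change of 0.31 ± 0.08 (adjusted p = 0.0118) and siRNA B one of -0.32 ± 0.08 (adjusted p = 0.00395), and over both siRNAs the change was 0.00 ± 0.11. Without the filter on low counts the call for siRNA A was lost (0.29, adjusted p = 0.0547). In *Fmr1* KD the change was -0.07 ± 0.11 over both siRNAs, and *Fmr1* siRNA A was called lower against all 6 Scramble libraries only (-0.23, adjusted p = 0.0122). An antisense transcript overlaps its exons (*Gm17110*, 22 to 84 counts per library against 1322 or more for *Bmpr1a*).

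*Bmpr2*, the type II receptor (chr1:59802544-59918173, plus strand), was at 234, 337 and 261 CPM in Scramble KD A and 255, 268 and 233 in B. It was at 309, 360 and 289 CPM in *Fmr1* KD A, and at 213, 212 and 207 in B, below all Scramble libraries. In *Zfp598* KD A1 it was at 307 CPM, whereas A2 and A3, the libraries rich in the single feature, were at 193 and 184, and B1 to B3 were at 345, 328 and 298. The pooled change was 0.00 ± 0.17 for *Fmr1* KD and 0.06 ± 0.17 for *Zfp598* KD, and no siRNA passed the test against the Scramble siRNA of its letter. *Zfp598* siRNA B (0.36 ± 0.15, adjusted p = 0.0842) did pass without the filter on low counts (0.00281), without *Zfp598* KD A2 and A3 (0.00771) and without the 3 libraries (0.0107), and *Zfp598* siRNA A (-0.28 ± 0.15) passed without the filter (-0.30, 0.0402) and without *Zfp598* KD A1 (0.00145). Between siRNAs it was lower with *Fmr1* siRNA B than A by -0.60 ± 0.15 (adjusted p = 0.00605), and higher with *Zfp598* siRNA B than A by 0.50 ± 0.15 (adjusted p = 0.0154). The latter was 0.10 with an adjusted p of 0.718 when A2 and A3 were left out.

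The 12 receptors and co-receptors on a list of the pathway had 10 genes tested. In *Fmr1* KD, 1 was called, *Acvr2a*, a type II receptor shared with activins, which fell by 0.45 on the log2 scale (adjusted p = 0.00501) from 59.3 to 72.0 CPM in Scramble KD to 44.7 to 54.0 CPM. In *Zfp598* KD 0 were called (1 by DESeq2, and 1 at an unadjusted p under 0.05), and *Acvr2a* was also lower in *Fmr1* KD than in *Zfp598* KD (-0.40 ± 0.09, adjusted p = 0.0139). The median log2 fold change over the 10 was -0.05 for *Fmr1* KD and 0.05 for *Zfp598* KD.

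*Smad1* (chr8:80065023-80126168, minus strand), a SMAD that receptors phosphorylate, was at 77.7, 78.7 and 81.3 CPM in Scramble KD A and at 61.9, 60.6 and 60.6 in B. In *Fmr1* KD it was at 109, 111 and 108 CPM with siRNA A and 70.2, 76.5 and 81.6 with B, and in *Zfp598* KD at 70.3, 66.4 and 80.4 with A and 69.3, 67.4 and 72.6 with B. Each *Fmr1* siRNA thus lay above the Scramble siRNA of its letter without overlap, whereas *Fmr1* siRNA B overlapped Scramble siRNA A. The change was 0.47 ± 0.08 with siRNA A (adjusted p = 1.85e-04) and 0.32 ± 0.08 with siRNA B (adjusted p = 0.00621), but 0.13 for siRNA B against all 6 Scramble libraries (adjusted p = 0.203). The pooled change of 0.40 ± 0.12 stood just inside the threshold (adjusted p = 0.0497). That call was lost without *Fmr1* KD A1, A2 or A3, Scramble KD A2, B1, B2 or B3, or *Zfp598* KD A1, A2, B1, B2 or B3, with adjusted p up to 0.121. It was also lost with the replicate number as a block (adjusted p = 0.0722) and without the filter on low counts (0.0807). With counts summed per siRNA it was lost as well (0.999), in a fit that called 0 of all genes. In *Zfp598* KD the change was 0.02 ± 0.12, and with *Zfp598* siRNA B it was 0.19 ± 0.08 (adjusted p = 0.0848), which passed without *Zfp598* KD A2 and A3 (0.0292).

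*Smad5* (chr13:56850797-56890190, plus strand), which acts beside SMAD1, was at 155, 133 and 144 CPM in Scramble KD A and at 175, 174 and 163 in B. It was at 128, 131 and 125 CPM in *Fmr1* KD A and 156, 168 and 169 in B, and at 164, 192 and 220 in *Zfp598* KD A and 128, 130 and 133 in B. As for *Bmpr1a*, the *Zfp598* siRNAs moved it in opposite directions, by 0.41 ± 0.09 with siRNA A (adjusted p = 0.00508) and -0.39 ± 0.09 with siRNA B (adjusted p = 0.00304), and the pooled change was 0.03 ± 0.13. The highest levels were those of A2 and A3. Without these libraries the change with siRNA A was 0.18 (adjusted p = 0.307), and the change with siRNA B was still called. In *Fmr1* KD the pooled change was -0.11 ± 0.13, and siRNA A was called lower against all 6 Scramble libraries only (-0.29, adjusted p = 0.00752).

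The other SMADs of the pathway, listed for comparison, are *Smad9* and *Smad4*. *Smad9*, itself a BMP target, fell by 0.80 on the log2 scale in *Fmr1* KD (adjusted p = 3.67e-04), from 32.1 to 43.8 CPM in Scramble KD to 20.3 to 23.0 CPM, and was at 28.3 to 43.5 CPM in *Zfp598* KD. *Smad4*, the common partner, rose in *Zfp598* KD by 0.50 ± 0.10 (adjusted p = 0.0156), from 132 to 151 CPM to 173 to 243 CPM, and changed by -0.01 ± 0.10 in *Fmr1* KD. Of the 4 SMADs, then, *Fmr1* KD had 1 called higher and 1 lower and *Zfp598* KD had 1 called higher. By siRNA, *Smad9* fell with both *Fmr1* siRNAs (by 0.90 and 0.69), whereas it fell by 0.41 with *Zfp598* siRNA A (adjusted p = 0.00879) and rose by 0.30 with siRNA B (adjusted p = 0.0227). *Smad4* rose with both *Zfp598* siRNAs (by 0.66 and 0.34, adjusted p = 4.94e-05 and 0.00609), and with *Fmr1* it changed by 0.20 with siRNA A (adjusted p = 0.0960) and fell by 0.24 with siRNA B (adjusted p = 0.0445), a difference in effect of -0.45 ± 0.12 (adjusted p = 0.0107). Both genes also differed between the KDs, *Smad9* by -0.76 ± 0.12 and *Smad4* by -0.51 ± 0.10 in *Fmr1* KD against *Zfp598* KD (adjusted p = 8.33e-04 and 0.00563).

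**Figure D2:**
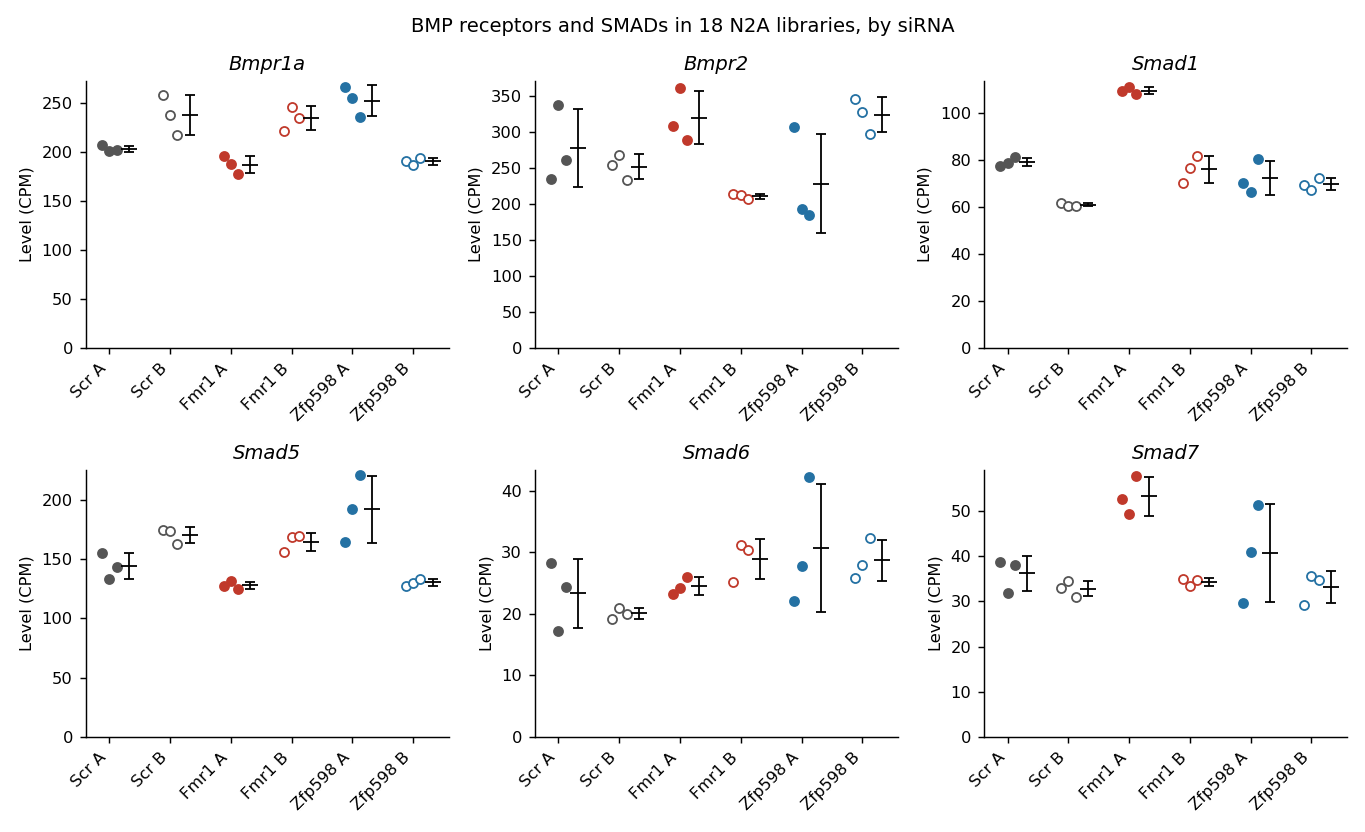
CPM (y axis, from 0) of the receptors and SMADs in each of the 18 libraries by siRNA (x axis, Scr for Scramble), with the mean and SD of 3 libraries beside the points. *Smad1* is highest in *Fmr1* siRNA A (108 to 111 CPM), and *Smad5* and *Bmpr1a* are higher in *Zfp598* siRNA A than in siRNA B.

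*Smad6* (chr9:63860341-63929793, minus strand), an inhibitory SMAD that acts mainly on BMP receptors, was at 28.3, 17.3 and 24.4 CPM in Scramble KD A and at 19.2, 21.0 and 20.0 in B. It was at 23.3, 24.2 and 26.1 CPM in *Fmr1* KD A and 25.1, 31.2 and 30.4 in B, and at 22.1, 27.7 and 42.2 in *Zfp598* KD A and 25.8, 28.0 and 32.3 in B. All KD libraries lay above those of Scramble siRNA B, and most lay within the range of Scramble siRNA A. With siRNA B it rose by 0.52 ± 0.18 in *Fmr1* KD (adjusted p = 0.0419) and 0.51 ± 0.18 in *Zfp598* KD (adjusted p = 0.0426), and against all 6 Scramble libraries by 0.42 and 0.41, which did not pass (adjusted p = 0.0608 and 0.0540), whereas *Zfp598* siRNA A passed against all 6 (0.47, adjusted p = 0.0468) but not against Scramble siRNA A (0.37 ± 0.17, adjusted p = 0.217). Leaving out 1 library ended the *Fmr1* siRNA B call in 7 cases (*Fmr1* KD A1, B2 or B3, Scramble KD B1, B2 or B3, or *Zfp598* KD B2, adjusted p up to 0.129) and the *Zfp598* siRNA B call in 5 (Scramble KD B1, B2 or B3, or *Zfp598* KD B2 or B3, up to 0.159). The pooled changes were 0.30 ± 0.14 in *Fmr1* KD (adjusted p = 0.233) and 0.44 ± 0.15 in *Zfp598* KD (adjusted p = 0.109), and the latter passed at 0.0440 without *Zfp598* KD A1.

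*Smad7* (chr18:75500374-75529006, plus strand), the inhibitory SMAD shared with the TGF-β arm, was at 38.8, 31.8 and 38.1 CPM in Scramble KD A and 33.0, 34.4 and 31.0 in B. *Fmr1* KD A stood above every Scramble library at 52.7, 49.3 and 57.7 CPM, whereas *Fmr1* KD B was at 34.9, 33.3 and 34.8. In *Zfp598* KD it was at 29.6, 41.1 and 51.4 CPM with siRNA A and 29.2, 35.7 and 34.8 with B. It rose with *Fmr1* siRNA A by 0.56 ± 0.14 (adjusted p = 0.00525), its change with siRNA B was 0.07 ± 0.14 (adjusted p = 0.786), and siRNA B was lower than A by -0.63 ± 0.14 (adjusted p = 0.00182). The difference between the KD effects of the siRNAs, -0.49 ± 0.20, did not pass (adjusted p = 0.0805), but it passed at nearly the same size without the filter (0.0428), without *Zfp598* KD A2 and A3 (0.00899) and without the 3 libraries (0.0150). The pooled changes were 0.34 ± 0.15 in *Fmr1* KD (adjusted p = 0.192) and 0.09 ± 0.15 in *Zfp598* KD.

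Few regulators of the pathway passed the test over pooled siRNAs. Of 12 intracellular regulators, *Smad6* and *Smad7* included, 11 were tested and 0 were called by edgeR in either KD (5 and 3 at an unadjusted p under 0.05, 1 and 2 by DESeq2), with medians of 0.06 for *Fmr1* KD and 0.09 for *Zfp598* KD. The extracellular antagonists had 7 of 15 genes tested and 0 called (3 and 2 at an unadjusted p under 0.05, 1 and 0 by DESeq2), and *Twsg1*, which binds BMPs, was the most abundant at 15.5 ± 1.46 RPKM (SD, n = 18). By DESeq2, *Smurf2*, a ubiquitin ligase of the pathway, was called lower in *Fmr1* KD (-0.22, adjusted p = 0.0385) and higher in *Zfp598* KD (0.25, adjusted p = 0.0248), and it differed between the KDs by -0.46 ± 0.08 (edgeR adjusted p = 0.00227). Of 13 genes of the TGF-β and activin arm 8 were tested and 0 were called in either KD (1 and 2 at an unadjusted p under 0.05, 0 by DESeq2), and *Smad3*, which TGF-β receptors phosphorylate, was higher in *Fmr1* KD (17.5 to 19.9 CPM) than in *Zfp598* KD (9.37 to 16.4 CPM) by 0.65 ± 0.14 (adjusted p = 0.00950). Of the 4 genes of the cofilin branch that BMPR2 binds, *Limk1* fell by 0.42 in *Fmr1* KD (adjusted p = 0.0146), and its change in *Zfp598* KD was -0.36 ± 0.10 (adjusted p = 0.0619, and 0.0146 by DESeq2).

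*Id3* (chr4:135870808-135873066, plus strand) was at 5.90, 4.17 and 4.46 CPM in Scramble KD A and 4.48, 2.63 and 3.39 in B, from 36 to 68 counts per library. It was at 13.05, 12.4 and 15.9 CPM in *Fmr1* KD A and 14.03, 14.7 and 14.4 in B. In *Zfp598* KD it was at 6.39, 9.17 and 9.61 CPM with siRNA A and 11.02, 14.2 and 13.5 with B. All 12 KD libraries were above all Scramble libraries, *Zfp598* KD A1 by the smallest margin, and *Fmr1* siRNA A and B overlapped. Against Scramble KD the log2 fold change was 1.76 for *Fmr1* KD and 1.36 for *Zfp598* KD, which is the contrast it was chosen on. Leaving out any 1 library gave 1.66 to 1.88 and 1.26 to 1.48.

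By siRNA, *Id3* exceeded the same-letter Scramble siRNA by 1.52 and 2.03 with *Fmr1* siRNA A and B and by 0.77 and 1.87 with *Zfp598* siRNA A and B. Without *Zfp598* KD A2 and A3, the value for siRNA A, then resting on A1 alone, was 0.40. Measures that the choice did not use could be tested. *Zfp598* siRNA B gave more *Id3* than siRNA A by 0.65 ± 0.19 (adjusted p = 0.0112, and 0.0586 without *Zfp598* KD A1), and the difference between the effects of the *Zfp598* siRNAs was 1.10 ± 0.28 (adjusted p = 0.00811). For the *Fmr1* siRNAs the same values were 0.06 ± 0.17 (adjusted p = 0.842) and 0.51 ± 0.27 (adjusted p = 0.198). *Fmr1* KD and *Zfp598* KD differed by 0.40 ± 0.18 (adjusted p = 0.200), and the Scramble siRNAs by -0.45 ± 0.21 (B against A, adjusted p = 0.135). *Fmr1* KD B1, the library with pluripotent markers, was at 14.03 CPM, between the other *Fmr1* KD libraries.

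**Figure D3:**
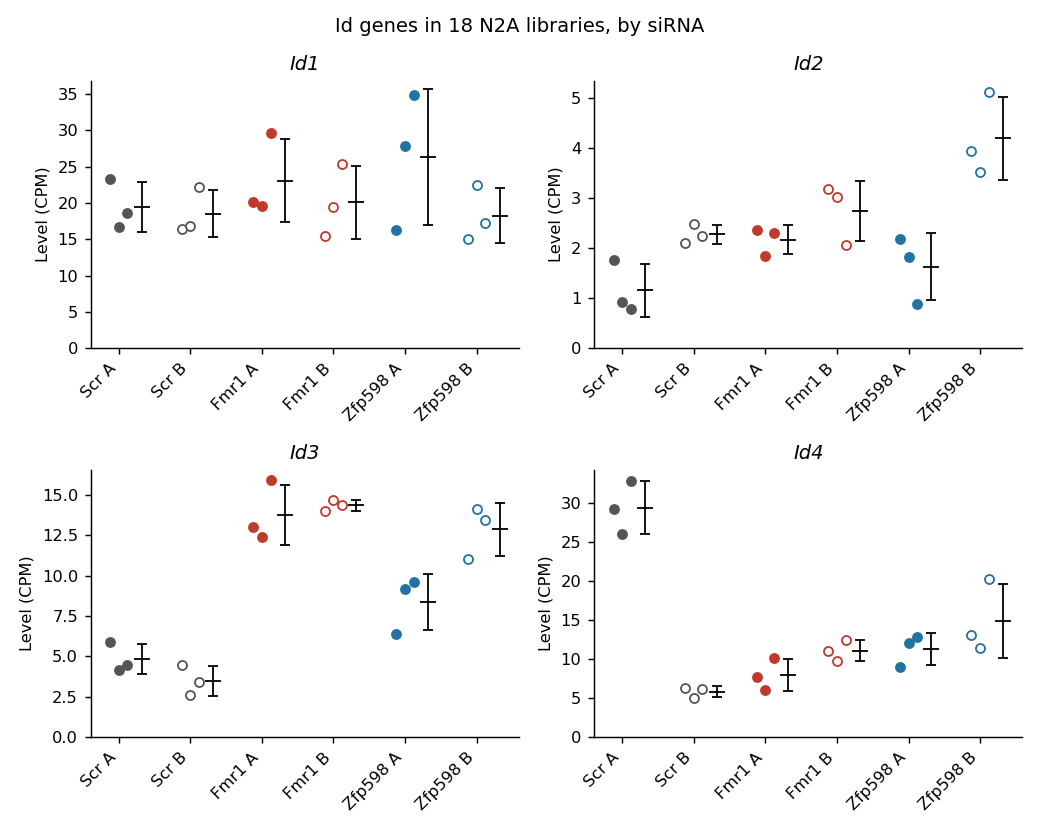
CPM (y axis, from 0) of the 4 Id genes in each of the 18 libraries by siRNA (x axis, Scr for Scramble), with the mean and SD of 3 libraries beside the points. All *Id3* points of the KDs lie above 5.90 CPM, the highest Scramble KD library, and *Id4* is near 30 CPM in Scramble siRNA A (26.0 to 32.9) and near 6 CPM in Scramble siRNA B (4.96 to 6.32).

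*Id4* (chr13:48414558-48419502, plus strand) was at 29.2, 26.0 and 32.9 CPM in Scramble KD A and at 6.32, 4.96 and 6.14 in B. The control siRNAs thus differed by -2.33 ± 0.21 (B against A), which is given as a description because this gap makes up the opposite directions that *Id4* was chosen for. It stayed between -2.42 and -2.24 without any 1 library. In *Fmr1* KD it was at 7.71, 6.04 and 10.1 CPM with siRNA A and 10.995, 9.73 and 12.4 with B, and in *Zfp598* KD at 9.02, 12.1 and 12.8 with A and 13.03, 11.4 and 20.3 with B. Every KD library other than *Fmr1* KD A2, which fell within the range of Scramble siRNA B, lay in the gap between the Scramble siRNAs. Within the KDs, siRNA B against A gave 0.48 ± 0.21 for *Fmr1* and 0.42 ± 0.21 for *Zfp598*. These gaps enter the same opposite directions and are likewise given with no test.

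The values of *Id4* against Scramble KD therefore depended on which control was used. Against the same-letter Scramble siRNA they were -1.89 and -1.40 with siRNA A of *Fmr1* and *Zfp598*, and 0.92 and 1.35 with siRNA B. Against all 6 Scramble libraries the same siRNAs gave -0.72 and -0.24 for A and -0.24 and 0.18 for B, so that *Fmr1* siRNA B changed sign. Over pooled siRNAs the *Id4* change was -0.88 for *Fmr1* KD and -0.42 for *Zfp598* KD, with leave-one-out ranges of -1.08 to -0.60 and -0.62 to -0.14, the smallest changes without Scramble KD A3. The difference between the effects of siRNA B and A was 2.81 for *Fmr1* and 2.75 for *Zfp598*. Both rest on the same Scramble libraries.

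Other genes separated the Scramble siRNAs as well. Of all genes tested, 22.7% were called between Scramble siRNA B and A, and of the 9 members other than *Id4* 3 were, *Smad1* lower in B and *Id2* and *Bmpr1a* higher. Of 11 neuroblastoma markers tested, 6 were lower in B (*Chgb*, *Stmn2*, *Phox2a*, *Th*, *Tubb3* and *Chga*) and *Mycn* was higher. The summed level of all 12 such markers was 1840 to 1986 CPM in Scramble siRNA A and 1106 to 1264 CPM in Scramble siRNA B, and it was 1217 to 1587 CPM in *Fmr1* KD and 1446 to 1975 CPM in *Zfp598* KD. Their part in the *Id4* difference was not tested. *Bmpr1a* with 0.23 ± 0.08 (adjusted p = 0.0396) lost its call without any 1 of 13 libraries, which were all of Scramble KD but B3, all of *Fmr1* KD but B1 and all of *Zfp598* KD siRNA B, with adjusted p up to 0.231, and without the filter on low counts (0.136). *Smad5*, at 0.24 ± 0.09 (adjusted p = 0.0546), was called by DESeq2 (0.0324) and without *Zfp598* KD A2 and A3 (0.00949).

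**Figure D4:**
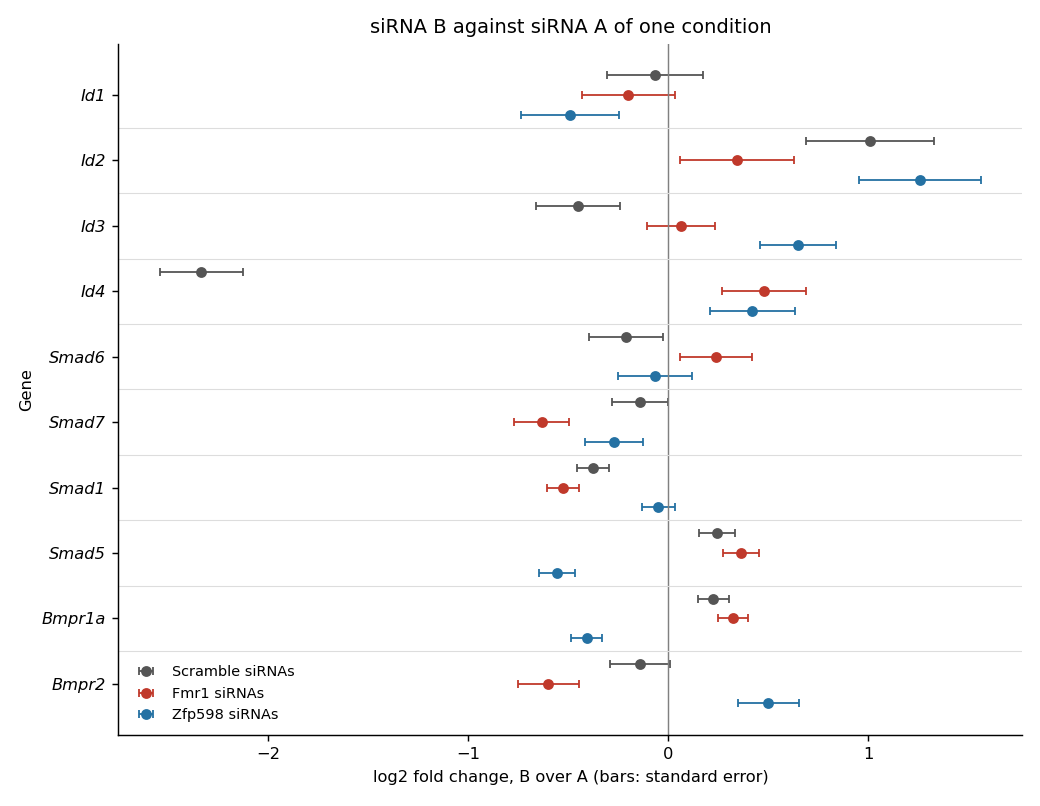
The log2 fold change of siRNA B over siRNA A (x axis, bars showing the SE) of each member (y axis) within Scramble KD, *Fmr1* KD and *Zfp598* KD, 3 libraries each. *Id4* stands at -2.33 for the Scramble siRNAs and at 0.48 and 0.42 for the KD siRNAs, and *Smad5* and *Bmpr1a* lie right of 0 for the Scramble and *Fmr1* siRNAs and left of it for the *Zfp598* siRNAs. The letters do not tie siRNAs across conditions, so a sign cannot be compared between conditions.

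*Id1* (chr2:152566218-152579544, plus strand), the Id gene most often used as a BMP readout, was at 23.3, 16.6 and 18.6 CPM in Scramble KD A and 16.5, 16.9 and 22.2 in B. It was at 20.1, 19.6 and 29.6 CPM in *Fmr1* KD A and 15.4, 19.4 and 25.4 in B, and at 16.3, 27.8 and 34.9 in *Zfp598* KD A and 15.04, 22.5 and 17.3 in B. The conditions overlapped, and the highest values were those of *Zfp598* KD A3 and *Fmr1* KD A3. The change was 0.18 ± 0.19 in *Fmr1* KD (adjusted p = 0.630) and 0.22 ± 0.19 in *Zfp598* KD (adjusted p = 0.594). Without *Zfp598* KD A1 it was called in *Zfp598* siRNA A against Scramble siRNA A (adjusted p = 0.0233) and in *Zfp598* siRNA B against A (0.00649), which with all libraries were not called (0.303 and 0.125). Without the filter on low counts the latter was also called (-0.46, adjusted p = 0.0123).

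*Id2* (chr12:25143798-25147282, minus strand) was at 1.76, 0.927 and 0.779 CPM in Scramble KD A and 2.11, 2.48 and 2.24 in B. It was at 2.37, 1.83 and 2.29 CPM in *Fmr1* KD A and 3.17, 3.01 and 2.06 in B, and at 2.18, 1.81 and 0.889 in *Zfp598* KD A and 3.95, 3.52 and 5.11 in B. In each condition the mean was higher with siRNA B, and the test was passed for Scramble (1.01 ± 0.32, adjusted p = 0.0281) and *Zfp598* (1.26 ± 0.31, adjusted p = 0.00333) but not for *Fmr1* (0.34 ± 0.29, adjusted p = 0.431). Against the same-letter Scramble siRNA it rose by 0.94 ± 0.32 with *Fmr1* siRNA A (adjusted p = 0.0407). The rise with *Zfp598* siRNA B was 0.88 ± 0.28 (adjusted p = 0.0230).

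These *Id2* calls rested on few counts. The call for *Fmr1* siRNA A was lost without *Fmr1* KD A1 or A3, Scramble KD A2, A3 or B1, or *Zfp598* KD B1 (adjusted p up to 0.179), without the filter on low counts (0.0562) and against all 6 Scramble libraries (0.237), where *Fmr1* siRNA B was called instead (0.78, adjusted p = 0.0340). That for *Zfp598* siRNA B was lost without Scramble KD B1 or B3 or *Zfp598* KD B3 (up to 0.110), and that between the Scramble siRNAs without Scramble KD A2, A3, B1, B2 or B3 (up to 0.143). Over pooled siRNAs the change was 0.52 ± 0.32 in *Fmr1* KD (adjusted p = 0.377) and 0.81 ± 0.33 in *Zfp598* KD (adjusted p = 0.189). Without *Zfp598* KD A2 and A3 the latter was 1.10 and was called (adjusted p = 0.0302).

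Target genes of BMP signalling other than *Id3* and *Id4* were called in both directions. Of 13 on the list, which holds *Id1*, *Id2*, *Smad6* and *Smad7*, 9 were tested, and their median was 0.18 for *Fmr1* KD and 0.22 for *Zfp598* KD. In *Fmr1* KD 1 was called higher, *Atoh8*, a bHLH factor (0.77 ± 0.22, adjusted p = 0.0427), and 2 lower, *Smad9* and *Hey1*, a transcriptional repressor that Notch also activates. *Hey1* fell by 0.66 on the log2 scale (adjusted p = 5.29e-04), from 25.3 to 36.9 CPM to 17.4 to 21.0 CPM, without overlap. The call of *Atoh8*, at 2.30 to 5.46 CPM in Scramble KD and 3.94 to 8.26 in *Fmr1* KD, was lost without *Fmr1* KD A1, B1, B2 or B3 or Scramble KD A2, B1, B2 or B3 (adjusted p up to 0.104). In *Zfp598* KD 0 of the 9 were called (5 at an unadjusted p under 0.05, 1 by DESeq2). *Hey1* changed there by -0.33 ± 0.10 (adjusted p = 0.0845, and 0.0207 by DESeq2).

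The partners of Id proteins were tested as lists as well. The 3 E proteins *Tcf3*, *Tcf4* and *Tcf12* had 0 called in either KD (2 and 2 at an unadjusted p under 0.05, 2 and 0 by DESeq2), with a median of 0.23 in both. Their changes were 0.17 to 0.31 for *Fmr1* KD and 0.01 to 0.26 for *Zfp598* KD. Of 29 tissue bHLH factors 12 were tested. *Bhlha15*, a factor of secretory cells that the study had picked from these libraries as higher in both KDs, rose by 1.20 ± 0.28 in *Fmr1* KD and 1.16 ± 0.28 in *Zfp598* KD (adjusted p = 0.0122 and 0.0372), from 0.320 to 1.02 CPM in Scramble KD, so it is not independent evidence of a direction. The second of these calls was lost without Scramble KD A2, A3, B1 or B3 or any *Zfp598* KD siRNA B library (adjusted p up to 0.108). *Lyl1*, a factor of blood cells, rose in *Zfp598* KD by 1.33 ± 0.29 (adjusted p = 0.0228) at 0.527 to 1.19 CPM in Scramble KD and 0.889 to 2.90 CPM in *Zfp598* KD, a call lost without any 1 siRNA B library of either condition (adjusted p up to 0.0731). *Hand2*, the most abundant factor on the list at 119 ± 31.1 RPKM (SD, n = 18), was lower in *Fmr1* KD than in *Zfp598* KD by -0.57 ± 0.16 (adjusted p = 0.0386). Without *Zfp598* KD A2 and A3 this was -0.39 and was not called (adjusted p = 0.131), and the call was also lost without *Fmr1* KD A1, A2, A3 or B1 or *Zfp598* KD B2 (up to 0.0998).

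**Figure D5:**
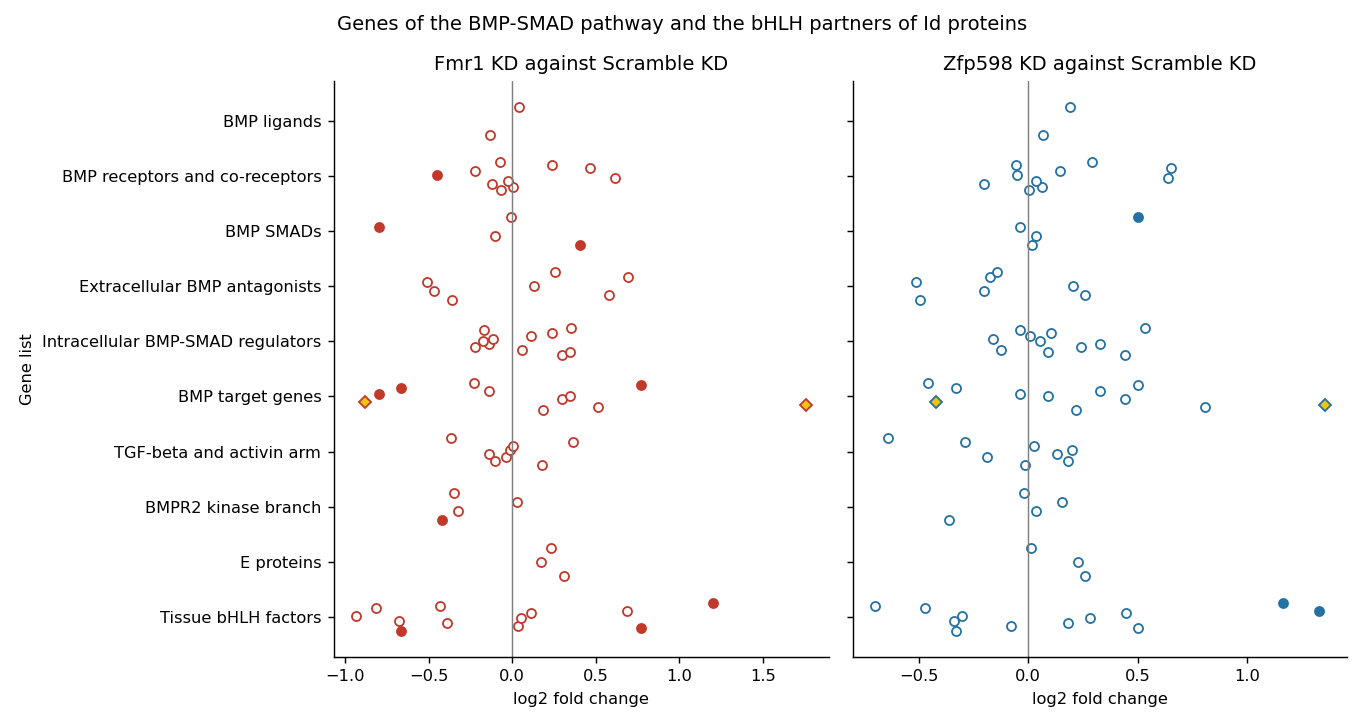
The log2 fold change (x axis) of each tested gene by list (y axis) in *Fmr1* KD and in *Zfp598* KD against Scramble KD, 6 libraries each. Filled points were called, open points were not, and diamonds are *Id3* and *Id4*, which were not tested, with *Id3* at 1.76 and 1.36 and *Id4* at -0.88 and -0.42.

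The KD effect of siRNA B, against Scramble siRNA B, minus that of siRNA A, against Scramble siRNA A, was tested over all genes. Each such difference also holds the gap between the Scramble siRNAs, so a call alone does not show that the siRNAs of a target differ. *Smad1*, for example, differed by -0.05 between *Zfp598* siRNA B and A (edgeR adjusted p = 0.679) and by -0.38 between the Scramble siRNAs (edgeR adjusted p = 0.00182). For *Fmr1*, 21.8% of genes were called and 0 of the 9 members tested (0 by DESeq2 as well), although *Smad7* and *Bmpr2* had an unadjusted p under 0.05 and were called without the filter on low counts and without *Zfp598* KD A2 and A3. For *Zfp598*, 21.9% were called and 5 of the 9, which were *Id3* (1.10), *Smad1* (0.33 ± 0.11, adjusted p = 0.0453) and *Bmpr2* (0.64 ± 0.22, adjusted p = 0.0381) with a higher and *Smad5* (-0.80 ± 0.13, adjusted p = 1.30e-04) and *Bmpr1a* (-0.63 ± 0.11, adjusted p = 3.00e-04) with a lower effect of siRNA B. *Id3* is in both counts of 9 members, although its difference is given as a description. The calls of *Smad5* and *Bmpr1a* held without any 1 library. That of *Smad1* was lost without any Scramble KD library, *Fmr1* KD A1 or *Zfp598* KD A2, B1 or B3 (adjusted p up to 0.113) and without the filter on low counts (0.160), and that of *Bmpr2* without Scramble KD A2, B1 or B3 or *Zfp598* KD A2, A3, B1 or B2 (up to 0.1001).

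Within the KDs, siRNA B was also set against siRNA A directly. For *Fmr1*, 24.3% of genes were called and 5 of the 9 members other than *Id4*, *Smad1* (-0.53 ± 0.08, adjusted p = 4.86e-05), *Smad7* and *Bmpr2* lower with siRNA B and *Smad5* (0.36 ± 0.09, adjusted p = 0.00494) and *Bmpr1a* (0.32 ± 0.08, adjusted p = 0.00363) higher. For *Zfp598*, 35.3% of genes were called and 5 of the 9 members other than *Id4*, *Id2*, *Id3* and *Bmpr2* higher and *Smad5* (-0.56 ± 0.09, adjusted p = 1.05e-04) and *Bmpr1a* (-0.41 ± 0.08, adjusted p = 4.54e-04) lower with siRNA B. Without *Zfp598* KD A2 and A3, 3 of these 5 were called, and *Id2* was not (0.96, adjusted p = 0.0984). *Smad5*, *Bmpr1a* and *Bmpr2* were called between siRNA B and A for both targets. For them the pooled changes hide differences between siRNAs that exceed the spread between replicates. The *Zfp598* difference of *Bmpr2* was 0.50 with all libraries and 0.10 without A2 and A3. The letters are not tied across targets, so the signs of these values cannot be compared between them.

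Across all 18 libraries, the genes whose log2 levels followed *Id3* most closely among 16124 with a mean of at least 1 CPM were *Lancl2* (Pearson r = 0.94), *Cct3* (0.93), *Gm14127* (0.90), *Fbn1* (0.90) and *Kank2* (0.90). *Fbn1*, the gene of a matrix microfibril protein and another of the transcripts picked by the study, had means of 14.5 and 9.07 CPM in Scramble KD A and B, 24.4 and 45.05 in *Fmr1* KD and 20.4 and 31.8 in *Zfp598* KD. For *Id4* the closest were *6430548M08Rik* (0.90), the plexin genes *Plxna1* (0.90) and *Plxnc1* (0.89), *Gm26811* (0.88) and *Cbx8* (0.87). *Plxna1* was at 376 and 217 CPM in Scramble KD A and B and at 215 to 303 CPM in the means of the KD siRNAs. With Spearman's rho in place of r, 3 of the 5 genes for *Id3* and 2 of the 5 for *Id4* were the same. Among the members *Id3* was nearest to *Smad6* (r = 0.62) and *Smad1* (0.51), and to *Id4* it had an r of 0.01. These libraries share 6 siRNAs, so the correlations describe the pattern over siRNAs and carry no p.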

How the data were processed

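RNA-seq of rRNA-depleted total RNA from 18 libraries of N2A cells was used, 3 for each of 6 siRNAs. Trim Galore, STAR on GRCm39 and featureCounts on exons were used by the authors, who deposited the resulting raw counts of each library without normalization. The annotation release and strand setting are not given in the sources used here, so reads of overlapping antisense transcripts cannot be told apart from those of a member. In GENCODE M39 such transcripts overlap exons of *Id1*, *Id2*, *Id3*, *Id4*, *Smad1*, *Bmpr1a* and *Bmpr2*. Those over *Id1*, *Id3*, *Smad1* and *Bmpr2* were not among the counted features. A protein-coding gene on the same strand also overlaps *Bmpr2* and was not among them. Per the labels, samples were grouped by siRNA and condition.

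The counts were analysed with edgeR 4.0.16 (limma 3.58.1, R 4.3.3). After filterByExpr with a minimum count of 10 and a minimum total of 15, 17901 genes were left, and CPM and RPKM were computed with TMM library sizes and exon lengths of GENCODE M39, which matched 54749 of the 55414 features. glmQLFit and glmQLFTest were run in a model of 3 conditions and in one of 6 siRNA groups, with all 18 libraries and no covariate, and Benjamini-Hochberg adjustment covered every tested gene. The scripts were tested on simulated data. Replicates were separate KDs, and p-values of the model of 6 siRNA groups measure the spread between them. In the model of 3 conditions the spread also takes in the gap between both siRNAs of a condition. That model counts libraries of 1 siRNA as replicates of the condition. No pair of replicates was as close as sampling noise (chi-square per degree of freedom at least 2.78 over 18 pairs). Total counts of 7674724 to 15414590 set the counting error, which is largest for *Id2*. The members and gene lists were chosen with earlier results of these data known. Genes named were the 10 members, the siRNA targets, list genes called in a pooled comparison or among the 3 most abundant of a list, and the 5 genes most like *Id3* and the 5 most like *Id4* by Pearson's r of log2(CPM + 0.5), and other marker genes and *Bmp4* were chosen after their values were seen. Alternatives were DESeq2 1.42.0, its size factors, no filter, a replicate block, the siRNA letter as a term, counts summed per siRNA, all 6 Scramble libraries as control, the most counted feature left out, each library left out and, added after seeing the data, 3 libraries left out together.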

Additional observations from a re-analysis of the deposited data

Results flagged for a closer look

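Among single libraries, *Id4* in *Zfp598* KD siRNA B replicate 3 was far above the other 5 *Zfp598* KD libraries, at 20.3 CPM (gap of 0.644 of the range), and *Bmpr2* in Scramble KD siRNA A replicate 2 was far above the other Scramble KD libraries, at 337 CPM (0.669 of the range). Chance flags about 1 in 20 groups.

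The KD effect of siRNA B differed from that of siRNA A for several members, each siRNA being set against the Scramble siRNA of its letter. These differences also hold the gap between the Scramble siRNAs. For *Id4* the difference was 2.81 on the log2 scale for *Fmr1* and 2.75 for *Zfp598*, because every library of siRNA A lay below and every library of siRNA B above the Scramble libraries of its letter, and these differences were not tested. For *Zfp598* the difference of *Id3* was 1.10 on the log2 scale, given as a description. The tested differences for *Zfp598* were 0.33 for *Smad1* (adjusted p = 0.0453), -0.80 for *Smad5* (1.30e-04), -0.63 for *Bmpr1a* (3.00e-04) and 0.64 for *Bmpr2* (0.0381). Without *Zfp598* KD A2 and A3, the value of *Bmpr2* was 0.24 (adjusted p = 0.382).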

How the results depend on the processing

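With 1 library left out, 2626 of the values for comparisons, members and named genes were unchanged, 100 lost a call and 24 gained one. Another 4 moved beyond the spread between replicates or by over 1.5 times, and 0 reversed. Unchanged meant the same side of the threshold or, if not tested, within that spread. A reversal was a change of sign in an untested value or in one called in either fit. Values called in neither fit counted as unchanged even if their sign changed, such as *Bmpr2* in *Fmr1* KD (-0.10 to 0.09). Under the other alternatives the numbers unchanged, losing a call, gaining one, moved and reversed were 1141, 41, 45, 9 and 1. The reversal was *Id4* with *Fmr1* siRNA B, at -0.24 against all 6 Scramble libraries.

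The number of members called ranged, with 1 library left out, from 0 to 1 for *Fmr1* KD, for *Zfp598* KD and between the KDs. Against the same-letter Scramble siRNA it ranged from 2 to 3 and 1 to 2 with *Fmr1* siRNA A and B, and from 2 to 6 with each *Zfp598* siRNA. Between siRNA B and A it ranged from 2 to 5 for Scramble, 5 to 6 for *Fmr1* and 4 to 6 for *Zfp598*. *Id4* was counted in these ranges, although its values are given as a description. For the difference between KD effects, with *Id3* counted, it ranged from 0 to 2 for *Fmr1* and 3 to 5 for *Zfp598*. The highest count of 6 for *Zfp598* siRNA A came without *Zfp598* KD A1.

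For *Fmr1* KD it was 0 without the filter on low counts, with the replicate block and with counts summed per siRNA, which called 0 of all genes. Without *Zfp598* KD A2 and A3, or without these and *Fmr1* KD B1, it was 1 for *Zfp598* KD, 1 for *Zfp598* siRNA A, 3 for *Zfp598* siRNA B against A, and 2 or 3 for the difference between *Fmr1* effects, which was also 2 without the filter. Between the KDs it was 1 with DESeq2, with the siRNA letter as a term and without the 3 libraries. For *Fmr1* siRNA B it was 1 against all 6 Scramble libraries. The 3 libraries were chosen after seeing the data, and the cause of these changes was not tested.

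Over all genes, the 351 calls of *Zfp598* KD became 936 with DESeq2, 789 with the letter term, 1273 without A2 and A3, 1225 without the 3 libraries and 0 summed per siRNA, a fit with 2 values per condition, and fell to 106 to 163 without Scramble KD A2, B1, B2 or B3 or *Zfp598* KD B1, B2 or B3, and rose to 887 without *Zfp598* KD A1. The 1170 calls of *Fmr1* KD became 1808 with the letter term and 1855 without A2 and A3, and fell to 656 to 778 without *Fmr1* KD A1, A2 or A3 or Scramble KD B1 or B2, and the 964 between the KDs became 1571 with DESeq2 and 1611 with the letter term and 535 to 599 without *Fmr1* KD A1, A2 or A3, and both became 0 summed per siRNA. For *Zfp598* siRNA A, 2138 became 3249 against all 6 Scramble libraries and 1072 or 1037 without A2 and A3 or the 3 libraries, 4699 without A1, and 1082, 1173 and 1419 without *Zfp598* KD A2 or Scramble KD A2 or A3, and for *Zfp598* siRNA B against A, 6311 became 2982 or 3024.

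Of 45 pairs of same-numbered libraries 12 had deviations correlated over 0.1 (r of -0.345 to 0.290), against 10 of 90 other pairs. Same-numbered pairs were thus over 0.1 more often than the others. The labels do not say that the numbers pair libraries, so the main fits had no block, and what same-numbered libraries share was not tested. With the replicate block the calls of *Zfp598* KD were 201 over all genes, *Smad1* in *Fmr1* KD had an adjusted p of 0.0722, *Atoh8* one of 0.0589 and *Bhlha15* in *Zfp598* KD one of 0.0585. Depth limits *Id2*, *Lyl1* and *Bhlha15* most.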
